A study of Mus musculus with 6 samples.

Results

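Hepcidin and the genes of the BMP-SMAD pathway that controls it were examined in the livers of mice on a high-fat diet (HFD). The 10 genes were Hamp, Hamp2, Bmp6, Bmp2, Hfe, Tmprss6, Id1, Smad6, Smad7 and Atoh8, taken by symbol from a table of 45777 genes. All 10 were listed, had reads in every library and were among the 17274 genes tested. Liver RNA of 6 male C57BL/6 mice was sequenced, with 1 library per mouse. The sample titles and library names do not name a batch. The 3 control littermates (LT) were Fpn flox/flox. The 3 Fpn-LKO mice were Alb-Cre; Fpn flox/flox, so both groups carried the floxed ferroportin allele and both groups received the HFD. Cre was driven by the albumin promoter, which is active in hepatocytes, so the deletion was directed at these cells. Ferroportin in the other cells of the liver was not measured separately here. The age of these mice and their time on the diet are not given in the labels. P-values here measure the spread between these 6 mice.

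Hepcidin is a small hormone that the liver secretes when body iron is high, and it removes the iron exporter ferroportin from the cell surface. Bone morphogenetic proteins (BMPs), above all BMP6 and BMP2 from the sinusoidal endothelial cells of the liver, bind receptors on hepatocytes. The receptors phosphorylate SMAD1, SMAD5 and SMAD8, which join SMAD4 and raise transcription of hepcidin together with Id1, Smad6, Smad7 and Atoh8. HFE promotes this signal, and the protease matriptase-2, encoded by Tmprss6, lowers it by cleaving the co-receptor hemojuvelin. Interleukin-6 raises hepcidin by another route, through STAT3.

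The mouse carries a pair of hepcidin genes. Hamp (NCBI gene 84506) spans bases 30942368 to 30944029 of chromosome 7 in GRCm38, and Hamp2 (gene 66438) lies near it from 30922372 to 30924181, both on the minus strand. Their promoters are shown because the motifs through which SMADs and STAT3 are known to act lie close together in the hepcidin promoter. The sequences below are the 250 bases before each start site, from RefSeq with the build GRCm38.p6, written 5′ to 3′ on the minus strand. Capitals mark GGCGCC, the core of the BMP-responsive element, and TTCNNNGAA, a STAT motif, and each of these reads the same on both strands. In Hamp the motifs stand apart without overlap.
Hamp, chr7:30944030-30944279: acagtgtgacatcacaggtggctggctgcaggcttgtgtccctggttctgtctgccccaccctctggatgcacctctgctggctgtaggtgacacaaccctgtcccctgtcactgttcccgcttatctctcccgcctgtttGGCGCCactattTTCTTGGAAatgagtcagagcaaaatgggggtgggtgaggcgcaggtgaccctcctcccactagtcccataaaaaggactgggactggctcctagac
Hamp2, chr7:30924182-30924431: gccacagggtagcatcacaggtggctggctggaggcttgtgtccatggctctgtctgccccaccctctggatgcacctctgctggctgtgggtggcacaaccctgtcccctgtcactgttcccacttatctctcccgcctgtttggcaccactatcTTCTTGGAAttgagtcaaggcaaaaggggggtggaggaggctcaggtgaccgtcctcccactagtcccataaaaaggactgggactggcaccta

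Both upstream stretches held the STAT motif as TTCTTGGAA, 97 bases before the start in Hamp and 94 bases before it in Hamp2. The motif GGCGCC stood 109 bases before the start of Hamp. At the aligned place Hamp2 has GGCACC, the substitution G4A with positions counted from 1 at the 5′ end of the element. The promoters were otherwise much alike, with 227 of 247 aligned positions identical (91.9%). Of all 32851 mouse promoters in the same table, over the same 250 bases, 9.59% held GGCGCC, 7.02% held TTCNNNGAA and 0.368% held both. Promoters were found for 6 of the 10 genes, and those of Bmp6, Hfe, Smad6 and Atoh8 held neither motif in this window. The windows of Smad6 (64022060 to 64022309) and Atoh8 (72235578 to 72235827) lie partly inside the gene bounds given below. They are therefore not wholly upstream of those genes. A match of letters is a description and not a measured binding site.

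Total counts lay between 43086184 and 47778683 per library. Values are given as CPM, the deposited read counts per 1000000 of the TMM-scaled library size, and a fold change is that of the libraries labelled Fpn-LKO over LT. Slc40a1, which encodes ferroportin, was counted at 153 ± 27.0 CPM in LT and 154 ± 18.7 CPM in libraries labelled Fpn-LKO (SD, n = 3 each). Ferroportin transcripts were therefore no fewer in the latter, in a count that covers the whole gene in all cells of the liver, and directions below are those of the labels. Tfrc, the transferrin receptor, whose transcript is known to fall when cell iron is high, averaged 38.6 ± 12.6 CPM for LT and 16.4 ± 2.98 CPM for Fpn-LKO (SD, n = 3 each). Ftl1, the ferritin light chain that stores iron, had means of 1931 ± 191 and 2966 ± 282 CPM (SD, n = 3 each). Both genes had groups that did not overlap, but neither passed with the quasi-likelihood test (adjusted p = 0.570 and 0.926 with edgeR). Tfrc passed with DESeq2 (adjusted p = 0.00172) and exactTest (adjusted p = 0.00480), and Ftl1 passed with DESeq2 (adjusted p = 0.00961) but not with exactTest (adjusted p = 0.336). The 5 hepatocyte markers Alb, Apoa1, Ttr, Cps1 and Ass1 summed to between 49512 and 62795 CPM in each library.

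None of the 10 genes passed the comparison of the groups by the quasi-likelihood test of edgeR, with p-values adjusted over all genes tested by the Benjamini-Hochberg method (adjusted p between 0.982 and 0.995). Over all 17274 genes the same test called 4, or 0.0232%. DESeq2's Wald test and edgeR's exactTest also called 0 of the 10, where they called 0.417% and 0.365% of all genes. At an unadjusted p under 0.05 there was 1 of the 10, Bmp6, which was lower in libraries labelled Fpn-LKO. Over all genes 4.8% had such a p, and 2.19% had it with a lower level. The 10 genes had 6 positive and 4 negative log2 fold changes with a median of 0.04, against -0.004 over all genes tested. With 3 mice against 3, the smallest p that an exact two-sided permutation test allows for any gene is 0.1.

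**Figure D1:**
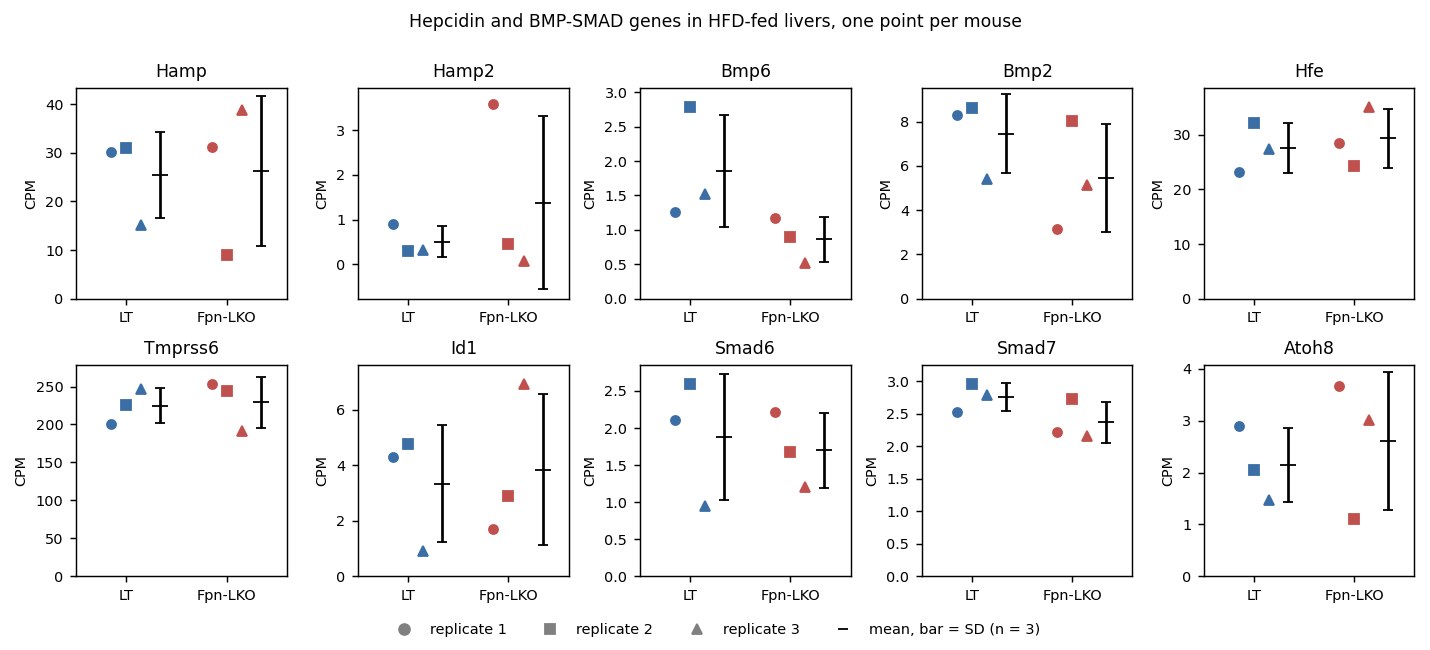
Level of each of the 10 genes in CPM (y axis, linear, a separate range for each gene) in LT and Fpn-LKO mice, with a point for each mouse, a horizontal mark for the mean and a bar for the SD (n = 3 per group). Bmp6 is the gene whose groups do not overlap, while Hamp, Hamp2 and Id1 spread widely within a group, and the SD bar of Hamp2 in Fpn-LKO reaches below 0 because the SD exceeds the mean.

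Hamp, the main hepcidin gene, stood at 30.2, 30.9 and 15.2 CPM in LT mice 1 to 3. In Fpn-LKO replicates 1 to 3 it stood at 31.1, 8.97 and 38.8 CPM. The lowest and the highest library of all 6 were thus both labelled Fpn-LKO, and the groups overlapped almost entirely. Mean levels were 25.4 ± 8.87 CPM in LT and 26.3 ± 15.5 CPM in Fpn-LKO (SD, n = 3 each), with a log2 fold change of 0.05 (standard error [SE] 0.50, 95% interval -1.13 to 1.22, adjusted p of 0.995 by this edgeR test). As a fold, that interval runs from 0.458 to 2.34, so changes within that range in either direction are compatible with these values. The counts behind these values were 419 to 1803 reads per library, so the libraries differed by far more than counting error. The sign of the fold change was not stable, since it turned negative in 7 of 15 alternatives, and without Fpn-LKO replicate 3 it was -0.35. In bulk tissue, fewer cells of a type and less RNA per cell cannot be told apart, for hepcidin as for the genes that follow.

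Hamp2, the second hepcidin gene of the mouse, was counted far lower, with 45, 13 and 13 reads in LT mice 1 to 3 and 172, 21 and 3 reads in Fpn-LKO mice 1 to 3. In CPM these were 0.904, 0.300 and 0.314 in LT, and 3.60, 0.450 and 0.0646 in libraries labelled Fpn-LKO. Fpn-LKO replicate 1 stood above all others, and Fpn-LKO replicate 3 stood below all others, with an exact Poisson 95% interval of 0.0133 to 0.189 CPM. The log2 fold change of 1.43 (SE 1.17, adjusted p = 0.985 with edgeR) rested on Fpn-LKO replicate 1, and without it the value was -0.98.

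Of the reads assigned to either hepcidin gene, Hamp2 took 2.91%, 0.961% and 2.02% in LT mice 1 to 3. It took 10.4%, 4.77% and 0.166% in Fpn-LKO mice 1 to 3. The exact Clopper-Pearson 95% intervals of Fpn-LKO replicate 1 (8.96% to 12.0%) and Fpn-LKO replicate 3 (0.0343% to 0.485%) lay apart from those of every LT library, the former above and the latter below. Such intervals cover counting error only. Hamp2 therefore did not follow Hamp from mouse to mouse, and the libraries with the most and the least Hamp2 both had Hamp above 30 CPM. The transcripts are 410 and 437 bases long and share 388 of 410 aligned bases (94.6%), with a longest identical run of 87 bases, and 0 of 311 windows of 100 bases in Hamp occur unchanged in Hamp2. How the authors' counting split reads between genes so much alike is not stated, and Hamp2 values in particular are uncertain. In the GENCODE annotation a long noncoding RNA, Gm44662, overlaps both genes on the opposite strand, and the strand setting of the counting is not stated.

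Bmp6, on chromosome 13 from 38345716 to 38500314 on the plus strand (gene 12161), encodes the ligand that rises with liver iron. It was counted at 63, 121 and 63 reads in LT mice 1 to 3, or 1.26, 2.79 and 1.52 CPM. In Fpn-LKO replicates 1 to 3 it was counted at 56, 42 and 24 reads, or 1.17, 0.899 and 0.517 CPM. Every library labelled Fpn-LKO was below every LT library, although LT replicate 1 and Fpn-LKO replicate 1 differed by less than counting error, with exact Poisson 95% intervals of 0.972 to 1.62 and 0.887 to 1.52 CPM. Mean Bmp6 was 1.86 ± 0.818 CPM in LT and 0.863 ± 0.330 CPM in Fpn-LKO (SD, n = 3 each). The log2 fold change was -1.10 (SE 0.45, 95% interval -2.14 to -0.06), which is 2.15 times more in LT, with an unadjusted p of 0.0402 and an adjusted p of 0.982 with edgeR. The adjusted p was 0.704 with DESeq2 and 0.867 with exactTest.

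Bmp6 was the 1 gene of the 10 whose groups did not overlap in CPM (exact two-sided permutation test, p = 0.1). Over all genes tested, 10.6% had groups that did not overlap, 5.34% with the lower level in libraries labelled Fpn-LKO, so 1 in 10 is near the background. Bmp6 kept its direction in all 13 alternatives that could be computed. Its value leaned on LT replicate 2, the highest library, without which the log2 fold change was -0.68 (unadjusted p = 0.172 with edgeR). The unadjusted p also rose above 0.05 without Fpn-LKO replicate 3 (0.111 with edgeR), without Fpn-LKO replicate 2 (0.0807), with the replicate number as a block (0.0521) and with limma on log2(TPM + 1) over all genes (0.0743, log2 fold change -0.35). On the opposite strand Bmp6 is overlapped by 4930579J19Rik, which had 0 reads in every library, and by the 3′ end of Txndc5. Txndc5 was counted at 153 ± 28.7 CPM in LT and 156 ± 16.2 CPM in libraries labelled Fpn-LKO (SD, n = 3 each), far above Bmp6 and with overlapping groups.

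Markers of the cells that are known to make Bmp6 were summed for comparison. The 8 markers of sinusoidal endothelial cells, each detected, summed to between 316 and 375 CPM in LT and between 292 and 307 CPM in libraries labelled Fpn-LKO. These sums did not overlap (ratio of the means 0.872, exact two-sided permutation test, p = 0.1), and 6 of the 8 markers had a lower mean, though 0 of the 8 had groups that did not overlap. Of all single genes tested, 10.6% had groups that did not overlap. Whether the share of endothelial cells differed was not tested. Bmp6 per 1000 CPM of these markers was 4.01, 7.44 and 4.55 in LT mice 1 to 3 and 3.82, 3.05 and 1.77 in Fpn-LKO mice 1 to 3. The groups of this ratio did not overlap either (5.33 ± 1.85 and 2.88 ± 1.03, SD, n = 3 each, exact two-sided permutation test, p = 0.1). The ratio reuses the Bmp6 values, whose groups were already apart, over marker sums that varied less. Its separation is therefore no further evidence about Bmp6. The summed markers of hepatocytes, Kupffer cells and macrophages, stellate cells, cholangiocytes, erythroid cells and neutrophils overlapped between the groups. Of 6 exocrine pancreas markers, 5 had 0 reads in every library, and the remaining one, Cela2a, lay between 0.577 and 1.5 CPM in LT and between 0 and 0.343 CPM in libraries labelled Fpn-LKO. The pancreas sum was thus also without overlap and lower in the latter, at levels near 0.

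**Figure D2:**
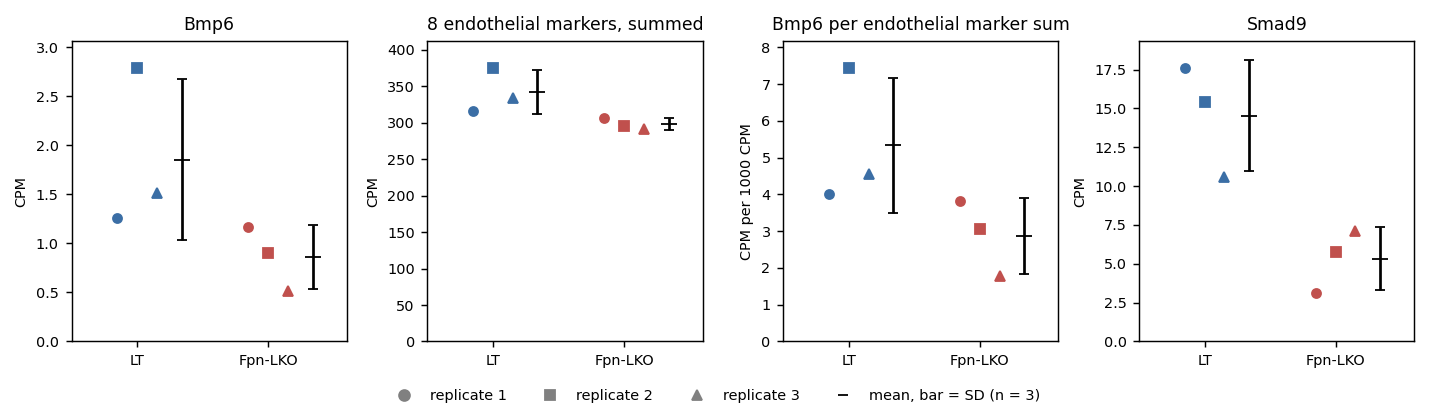
From left to right, Bmp6 in CPM, the summed CPM of 8 sinusoidal endothelial markers, Bmp6 per 1000 CPM of those markers, and Smad9 in CPM, with a point for each mouse and the mean with its SD (n = 3 per group), all on linear axes from 0. In each panel every Fpn-LKO point lies below every LT point, and the nearest points of the groups are 1.26 and 1.17 CPM for Bmp6, 316 and 307 CPM for the markers, 4.01 and 3.82 for the ratio, and 10.6 and 7.11 CPM for Smad9.

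Bmp2, the other endothelial ligand of hepcidin control, on chromosome 2 from 133552159 to 133562896, was counted at 8.31, 8.63 and 5.39 CPM in LT mice 1 to 3. It was counted at 3.16, 8.01 and 5.15 CPM in Fpn-LKO mice 1 to 3. These groups overlapped, with a log2 fold change of -0.45 (95% interval -1.27 to 0.36, adjusted p = 0.983 with edgeR). The value depended on single libraries, at -0.18 without Fpn-LKO replicate 1 and -0.84 without Fpn-LKO replicate 2 (unadjusted p = 0.0371, adjusted p = 0.999 with edgeR). Per 1000 CPM of endothelial markers the means were 21.8 ± 5.22 in LT and 18.4 ± 8.44 in libraries labelled Fpn-LKO (SD, n = 3 each), again with overlap. Fpn-LKO replicate 1, which had the least Bmp2, was thus not the library with the least Bmp6, which was Fpn-LKO replicate 3.

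The modulators of the pathway varied little between mice. Hfe, on chromosome 13 from 23702034 to 23710854, lay between 23.1 and 32.2 CPM in LT and between 24.3 and 35.1 CPM in libraries labelled Fpn-LKO. Its log2 fold change was 0.09 (adjusted p = 0.995 with edgeR), and the 95% interval as a fold ran from 0.799 to 1.42. Tmprss6, on chromosome 15 from 78439667 to 78468648, lay between 201 and 247 CPM in LT and between 191 and 253 CPM in libraries labelled Fpn-LKO. Its log2 fold change was 0.03 (adjusted p = 0.995), and the interval of 0.801 to 1.30 as a fold was the narrowest of the 10 genes. The highest and lowest of the 6 libraries differed 1.33-fold in Tmprss6 and 1.52-fold in Hfe, against 4.33-fold in Hamp.

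The SMAD target genes are known to be raised by the pathway, but whether their levels here reflect its activity was not tested. Id1, an inhibitor of DNA binding on chromosome 2 from 152736251 to 152737410, was counted at 4.30, 4.78 and 0.918 CPM in LT mice 1 to 3 and at 1.70, 2.91 and 6.92 CPM in Fpn-LKO mice 1 to 3. It spread 7.53-fold over the 6 libraries with no separation of the groups, and its log2 fold change was 0.20 (95% interval -1.37 to 1.78, adjusted p = 0.995 with edgeR). Atoh8, a basic helix-loop-helix factor that acts on the hepcidin promoter, on chromosome 6 from 72206174 to 72235780, was counted at 2.89, 2.05 and 1.47 CPM in LT and at 3.67, 1.11 and 3.02 CPM in libraries labelled Fpn-LKO. The highest and the lowest library of Atoh8 were again both labelled Fpn-LKO, and its log2 fold change was 0.28 (95% interval -0.81 to 1.36, adjusted p = 0.995).

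Smad6 and Smad7, the inhibitory SMADs that feed back on the pathway, were counted at low levels. Smad6, on chromosome 9 from 63953076 to 64022085, lay between 0.942 and 2.59 CPM in LT and between 1.21 and 2.22 CPM in libraries labelled Fpn-LKO, with a log2 fold change of -0.15 (adjusted p = 0.995 with edgeR). Smad7, on chromosome 18, was counted at 2.53, 2.95 and 2.78 CPM in LT and at 2.22, 2.72 and 2.15 CPM in libraries labelled Fpn-LKO. The groups of Smad7 overlapped by a single library, with a log2 fold change of -0.22 (95% interval -0.75 to 0.31, adjusted p = 0.991). Among the 4 target genes, Id1 and Atoh8 had positive and Smad6 and Smad7 negative fold changes, and none had groups that stood apart.

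**Figure D3:**
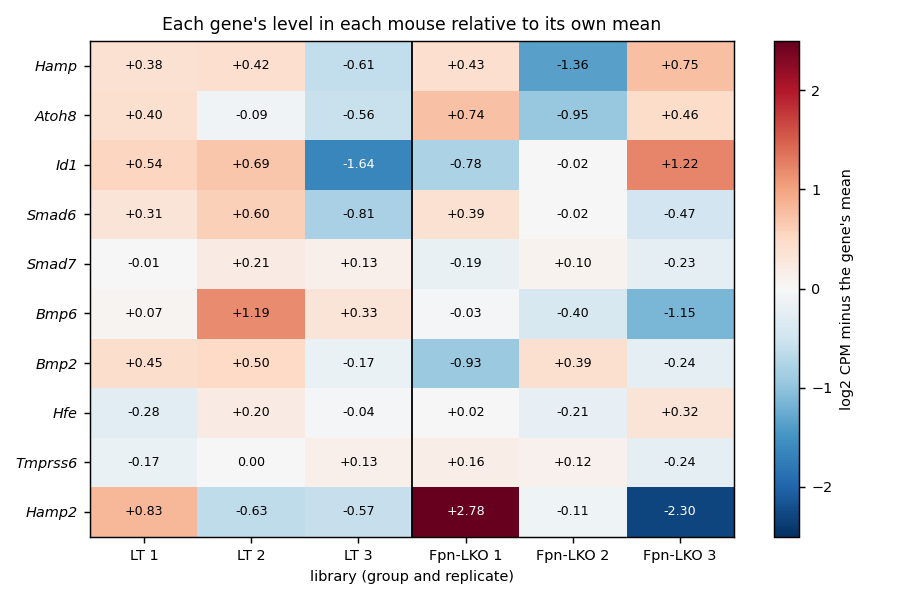
Level of each gene (rows) in each library (columns) as log2 CPM minus the mean of that gene over the 6 libraries, with red above and blue below the mean and the value written in each cell. Hamp and Atoh8 are both lowest in Fpn-LKO replicate 2 (-1.36 and -0.95), Id1 is lowest in LT replicate 3 (-1.64), and Tmprss6, Hfe and Smad7 stay within 0.32 of their means.

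Levels were compared between genes on the TPM scale, which the authors scaled to transcript length. Tmprss6 at 94.0 ± 12.1 TPM and Hamp at 82.7 ± 36.6 TPM (SD, n = 6 for both) were the highest of the 10 genes, and Tmprss6 stood above Hamp in 3 of 6 libraries, so these neighbours were not separated. Hfe followed at 10.5 ± 1.6 TPM and lay below Hamp in all 6 libraries. Id1 came next at 4.90 ± 3.09 TPM, below Hfe in all 6. Hamp2 at 2.72 ± 3.76 TPM was above Bmp2 at 2.40 ± 0.945 TPM in 1 of 6 libraries only, since its mean was carried by Fpn-LKO replicate 1. Atoh8, Smad6, Smad7 and Bmp6 were lowest, with means of 1.22, 0.790, 0.752 and 0.580 TPM, and Smad6 and Smad7 exchanged places in 3 of 6 libraries.

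Whether hepcidin varied between mice together with its regulators was examined over the 6 libraries, for all 45 pairs of the 10 genes. None of the 45 pairs passed after Benjamini-Hochberg adjustment of exact permutation p-values, while 1 had an unadjusted p under 0.05 by Pearson's r, 2 by Spearman's rho and 2 by Pearson's r on log2(TPM + 1). Hamp with Atoh8 was among them on each scale, at r = 0.91 (exact permutation p = 0.0125, adjusted p = 0.562) and Spearman's rho = 0.89 (exact permutation p = 0.0333, adjusted p = 0.750). Of all genes tested, 0.585% had an r with Hamp at least as high. Without the libraries farthest from the median of Hamp, Fpn-LKO replicate 2 and LT replicate 3, r was 0.17, so the relation rested on these libraries. Tmprss6 with Id1 gave rho = -0.89 (exact permutation p = 0.0333, adjusted p = 0.750) and r = -0.82 (exact permutation p = 0.0542, adjusted p = 0.769), but r = -0.33 on TPM. Bmp2 with Smad7 gave r = 0.90 on TPM (exact permutation p = 0.0278, adjusted p = 0.719) and r = 0.70 on CPM (exact permutation p = 0.136, adjusted p = 0.769). Hamp gave r = 0.49 with Id1 (exact permutation p = 0.322, adjusted p = 0.769) and r = -0.0007 with Bmp6 (exact permutation p = 1.00). With 3 mice a genotype, no correlation within a genotype was computed.

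The genes with log2 CPM profiles over the 6 libraries most like that of Hamp were found by the root mean square difference of centred profiles among 6877 genes with a mean of at least 10 CPM. They were Ptprc at 0.365, H2-Ab1 at 0.372, Rdh16 at 0.413, Cd74 at 0.421 and Ugt1a1 at 0.423, in log2 units, where the median gene lay at 0.769. A gene that does not vary would score the spread of Hamp itself, so the median is no yardstick of unlikeness. These genes were picked for the smallest differences, and no test was attached. Ptprc, which encodes the leukocyte antigen CD45, was lowest at 11.7 CPM in Fpn-LKO replicate 2 and highest at 36.0 CPM in Fpn-LKO replicate 3, the same libraries as for Hamp. H2-Ab1 and Cd74, of antigen presentation, had their lowest levels in Fpn-LKO replicate 2 too, at 7.81 and 22.5 CPM. Rdh16, a retinol dehydrogenase, and Ugt1a1, the bilirubin conjugating enzyme, are hepatocyte genes, and they were lowest in LT replicate 3 (94.6 CPM) and Fpn-LKO replicate 2 (189 CPM), respectively.

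The rest of the pathway was examined in 75 further genes, of which 66 could be tested. The quasi-likelihood test called 0 of the 66 after adjustment, while DESeq2 and exactTest each called 1, Smad9. Over all genes these tests called 0.0232%, 0.417% and 0.365%, which is also the background for the single lists below. At an unadjusted p under 0.05 there were 3, of which 1 was higher (Hnf4a) and 2 were lower (Smad9 and Acvr2b), where 2.62% of all genes were higher and 2.19% lower at that p. Groups did not overlap in 5, namely Smad9 and Bmp10, which were lower in libraries labelled Fpn-LKO, and Bmpr1a, Hnf4a and Slc39a14, which were higher, beside 5.34% lower and 5.25% higher among all genes. The median log2 fold change of the 66 was 0.09, against -0.004 over all genes tested.

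Smad9, on chromosome 3 from 54755455 to 54801662, encodes SMAD8, a receptor SMAD of the BMP pathway like SMAD1 and SMAD5. It was counted at 17.6, 15.4 and 10.6 CPM in LT mice 1 to 3 and at 3.12, 5.78 and 7.11 CPM in Fpn-LKO mice 1 to 3. Every library labelled Fpn-LKO was below every LT library, and the highest of the former reached 7.11 CPM against 10.6 CPM in the lowest of the latter. The log2 fold change was -1.45 (SE 0.32, 95% interval -2.20 to -0.69), with an adjusted p of 0.649 with edgeR. The adjusted p was 0.00429 with DESeq2 and 0.0156 with exactTest, and between 0.00429 and 1.00 over the 15 alternatives, all of which kept the direction. Smad1, Smad5 and Smad4, which carry the same signal, had log2 fold changes of -0.07, 0.05 and 0.01 (adjusted p = 0.995 for each with edgeR).

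Among the other BMP ligands, Bmp10 was counted at 2.11, 2.38 and 2.46 CPM in LT mice 1 to 3 and at 1.43, 1.71 and 1.70 CPM in Fpn-LKO mice 1 to 3. These groups did not overlap, with a log2 fold change of -0.52 (95% interval -1.09 to 0.05, adjusted p = 0.982 with edgeR). Gdf2, which encodes BMP9, had means of 17.4 and 19.9 CPM, and Bmp5 had means of 14.0 and 13.5 CPM, in LT and Fpn-LKO. Bmp10, with 68 to 105 reads per library, was the only ligand of this list whose groups did not overlap. The more abundant Gdf2 and Bmp5 had log2 fold changes of 0.20 and -0.05 and overlapping groups. The scarcer Bmp4 and Bmp7 had log2 fold changes of 0.03 and 0.76, also with overlap.

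Of the 11 receptors and co-receptors, 10 could be tested, with 5 positive and 5 negative log2 fold changes between -0.91 and 0.34. Hjv, the co-receptor hemojuvelin, had means of 23.5 ± 4.11 and 28.1 ± 2.02 CPM, and Tfr2, the sensor of iron-loaded transferrin, had means of 288 ± 16.1 and 301 ± 25.6 CPM (SD, n = 3 each), both with overlap. Acvr2b, an activin type II receptor, had means of 7.31 ± 2.72 and 3.89 ± 1.06 CPM, with overlap and an adjusted p of 0.982 with edgeR. Bmpr1a, the type I receptor through which BMP2 acts in hepatocytes, lay between 49.1 and 54.8 CPM in LT and between 56.2 and 66.7 CPM in libraries labelled Fpn-LKO, but its groups overlapped in TPM. No receptor passed the adjusted test.

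**Figure D4:**
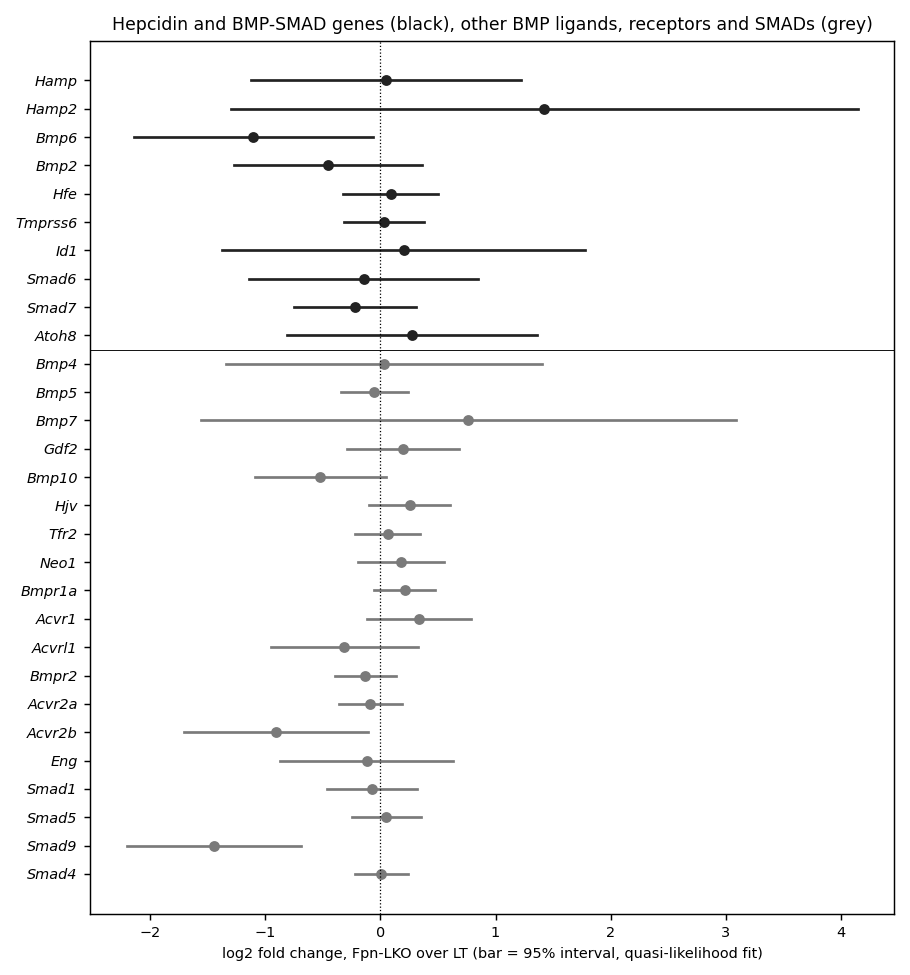
Log2 fold change of the libraries labelled Fpn-LKO over LT (x axis) with its 95% interval from edgeR's quasi-likelihood fit, for the 10 hepcidin and BMP-SMAD genes (black) and the tested genes among other BMP ligands, receptors and SMADs (grey). The intervals of Bmp6, Acvr2b and Smad9 lie below 0, and those of Tmprss6 and Hfe are the narrowest of the black ones.

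Genes listed as inhibitors of BMP signalling numbered 16, of which 12 could be tested. They had 10 positive and 2 negative log2 fold changes, where all genes tested had 8529 positive and 8745 negative. The list was mixed, and 2 of the 10 positive values were those of Furin, a protease, at 0.13 and Spint2, a protease inhibitor, at 0.12. The sign count can therefore not be read as that of inhibitors of BMP signalling alone. Of the 12, 0 were past the adjusted test, 0 at an unadjusted p under 0.05, and 0 with DESeq2 or exactTest. Fst, the antagonist follistatin, had a log2 fold change of 2.09 (adjusted p = 0.982 with edgeR) from at most 58 reads in a library. Bmpr1b, Grem1, Sostdc1, Erfe, Msx2, Dlx3, Il6 and Il22 had 0 reads in every library, which allows up to 0.0725 CPM at the depth of the shallowest scaled library. Erfe, which encodes the erythroid hormone that lowers hepcidin, was thus not detected in liver at this depth. Nog had 8 reads in Fpn-LKO replicate 1 and 0 reads in the other 5 libraries.

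The other targets of BMP signalling overlapped between the groups as well. Id2 was counted at 93.7, 81.1 and 108 CPM in LT mice 1 to 3 and at 52.4, 64.6 and 184 CPM in Fpn-LKO mice 1 to 3. Id3 was counted at 8.83, 11.4 and 7.25 CPM in LT and at 4.36, 6.19 and 9.72 CPM in libraries labelled Fpn-LKO. Among the libraries labelled Fpn-LKO, Id1, Id2 and Id3 were all lowest in replicate 1 and highest in replicate 3. Id4 differed, at 1.15, 0.792 and 0.883 CPM in these libraries, and was highest in replicate 1. The LT mice did not share the order either, since Id2 was highest in LT replicate 3, where Id1 and Id3 were lowest. Of 8 such genes 6 could be tested, with log2 fold changes between -0.51 and 0.56, and 0 passed the adjusted test by the quasi-likelihood fit, DESeq2 or exactTest, or had an unadjusted p under 0.05.

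Acute-phase genes of the interleukin-6 and STAT3 arm spread widely between mice of the same group. Saa1, serum amyloid A, was counted at 27.0, 47.6 and 1189 CPM in LT mice 1 to 3 and at 69.4, 622 and 1069 CPM in Fpn-LKO mice 1 to 3. Saa2 was counted at 9.54, 8.06 and 754 CPM in LT and at 31.4, 245 and 489.5 CPM in libraries labelled Fpn-LKO. Lcn2, lipocalin 2, was counted at 4.22, 2.54 and 68.3 CPM in LT and at 14.4, 27.8 and 42.5 CPM in libraries labelled Fpn-LKO. These acute-phase genes were thus high in LT replicate 3 and in Fpn-LKO replicates 2 and 3, and low in the other 3 libraries. Hp and Fgl1, haptoglobin and hepassocin, were highest in the same 3 libraries, with 4392 to 4771 and 666 to 839 CPM.

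Hamp did not follow these genes. Of the 3 libraries with high Saa1, Hamp was lowest of all in Fpn-LKO replicate 2 (8.97 CPM) and next lowest in LT replicate 3 (15.2 CPM), but highest of all in Fpn-LKO replicate 3 (38.8 CPM). In the 3 libraries with low Saa1, Hamp was between 30.2 and 31.1 CPM. Stat3 had means of 74.2 ± 23.6 and 90.9 ± 20.2 CPM and Socs3, its feedback inhibitor, 5.75 and 6.86 CPM, and both overlapped between the groups. None of the 13 tested genes of this arm passed the adjusted test, had an unadjusted p under 0.05 by the edgeR test, or was called by DESeq2 or exactTest.

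**Figure D5:**
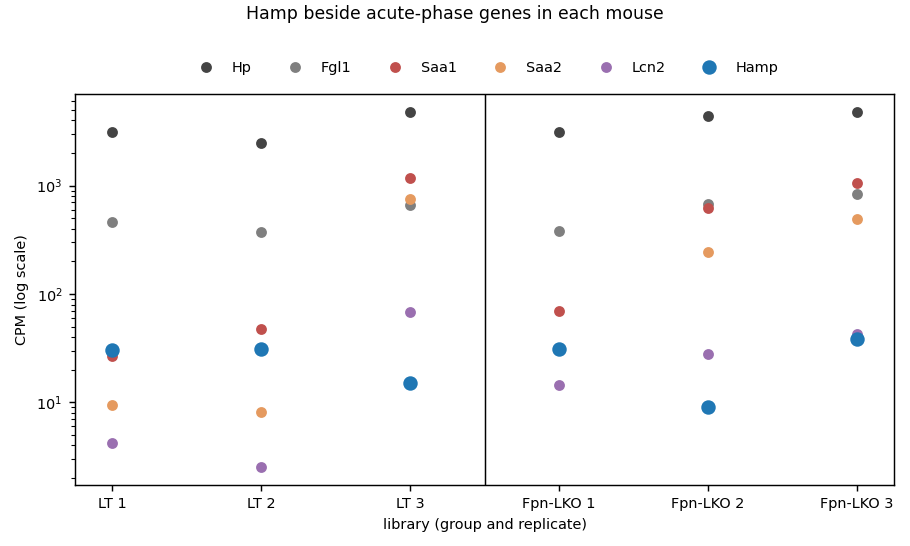
Level of Hamp and of 5 acute-phase genes in CPM (y axis, log scale) in each of the 6 libraries (x axis). Saa1, Saa2 and Lcn2 are high in LT replicate 3 and in Fpn-LKO replicates 2 and 3, where Hamp takes its lowest values (8.97 and 15.2 CPM) and its highest (38.8 CPM).

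Among 16 other regulators of hepcidin transcription, 11 had positive and 5 had negative log2 fold changes, where all genes tested had 8529 positive and 8745 negative. Hnf4a, a hepatocyte nuclear factor, stood at 239, 250.1 and 265 CPM in LT mice 1 to 3 and at 310.2, 344 and 286 CPM in Fpn-LKO mice 1 to 3. Its groups did not overlap, with a log2 fold change of 0.32 (SE 0.12, unadjusted p = 0.0328, adjusted p = 0.982 with edgeR), and an antisense gene, Hnf4aos, overlaps it. Slc39a14, the iron and zinc importer ZIP14, had means of 200.2 ± 20.0 and 232 ± 9.21 CPM (SD, n = 3 each), and its groups were apart only narrowly, since LT replicate 3 and Fpn-LKO replicate 1 both stood at 222 CPM. Gdf15, a stress cytokine, had means of 1.32 ± 0.997 and 2.84 ± 0.976 CPM with overlap. Egfr spread from 309 to 1644 CPM over the 6 libraries. It lay between 613 and 1644 CPM in LT and between 309 and 1334 CPM in libraries labelled Fpn-LKO, with overlap. Creb3l3 and Cebpa, of the stress and liver-enriched routes to hepcidin, had log2 fold changes of 0.02 and 0.20.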

How the data were processed

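Liver RNA of 3 LT and 3 Fpn-LKO mice was sequenced. The labels give a stranded mRNA kit, whereas the study's methods give a total RNA kit with rRNA removal. Per the labels' processing notes, HISAT2 2.1.0, Bowtie2 2.3.4.1 and StringTie 2.1.3b were used with mm10. The authors deposited read counts per gene from StringTie, without normalization, and TPM values, scaled to transcript length and library size. FPKM columns were not used here. The strand setting of the counting is not given in the sources used here.

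The deposited counts entered edgeR 4.0.16 under R 4.3.3 (TMM scaling, quasi-likelihood test without robust estimation, Benjamini-Hochberg adjustment, threshold 0.05), after removal of genes that lacked reads in more than 1 library. Standard errors were derived from the F statistic. The common biological coefficient of variation was 0.275. Alternatives were RLE size factors, DESeq2 1.42.0, exactTest (the test of the study's methods), other filters, the replicate number as a block, limma 3.58.1 on log2(TPM + 1) and log2(TPM + 0.1), and leaving out each mouse. Scripts were tested on simulated counts. No 2 libraries of a group agreed within sampling noise (chi-square per degree of freedom from 68.5 to 335). Total counts of 43086184 to 47778683 per library make 1 CPM worth 41.4 to 49.8 reads. Groups came from the sample titles.

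The named genes are the 10 genes, Slc40a1, Tfrc, Ftl1, all genes of 7 pathway lists, and the 5 genes most like Hamp and Id1 in profile. Txndc5, 4930579J19Rik, Gm44662 and Hnf4aos were named afterwards because they overlap such genes. The 10 genes and the lists were chosen with earlier results of these data known. Promoters and gene positions are those of RefSeq on GRCm38, and overlaps are those of GENCODE.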

Additional observations from a re-analysis of the deposited data

How the results depend on the processing

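None of the 10 genes passed the adjusted threshold in any alternative. Bmp6, Bmp2 and Smad7 kept their direction in all alternatives computed (13, 15 and 13). Without a mouse they ranged from -1.39 to -0.68, from -0.84 to -0.18 and from -0.33 to -0.15 in log2 fold change. The log2 fold change of Hamp became -0.11 with the replicate block, -0.034 with log2(TPM + 1) under either filter and -0.037 with log2(TPM + 0.1). Leaving out each mouse in turn turned the sign of 7 of the 10 genes at least once, with log2 fold changes from -0.35 to 0.46 for Hamp, -0.98 to 2.15 for Hamp2, -0.058 to 0.22 for Hfe, -0.045 to 0.15 for Tmprss6, -0.53 to 0.56 for Id1, -0.46 to 0.16 for Smad6 and -0.054 to 0.64 for Atoh8. The 4 genes past the threshold over the whole table became 72 with DESeq2, 63 with exactTest, 7 with limma on log2(TPM + 0.1), and between 0 and 6 without a mouse. Without LT replicate 2 there were 0, and without LT replicate 1, LT replicate 3 or Fpn-LKO replicate 2 there was 1. The pathway genes past it went from 0 to 1 with DESeq2 and to 1 with exactTest, in both cases Smad9, and stayed at 0 elsewhere. The causes were not tested. Bmp6, Smad6 and Smad7 are below the mean of 1 TPM that the filtered limma fits require.

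The replicate numbers are carried by different mice. Deviations of same-numbered mice correlated at 0.13, -0.0095 and 0.04 across genes, and those of different-numbered mice at -0.098 to 0.061. These values do not show a pairing by number, but with 3 mice a group they cannot exclude one. With the replicate block, 0 genes of the whole table passed, and 0 of the 10 genes and of the pathway genes. The counting limit was 3 reads, or 0.0602 to 0.0725 CPM per library. For Hamp2, Bmp6, Smad6, Smad7 and Atoh8, with few reads, counting error adds to the spread between mice.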

Other observations

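The genes with profiles most like that of Id1 over the 6 libraries were 2010003K11Rik, Igfbp1, Fgf21, Cyp4a31 and G0s2, among 6878 genes with a mean of at least 10 CPM. Their root mean square differences from the centred log2 CPM profile of Id1 were 0.419, 0.477, 0.481, 0.504 and 0.512, where the median gene lay at 0.987. Igfbp1, an insulin-repressed binding protein of insulin-like growth factors, was counted at 49.9, 31.1 and 15.6 CPM in LT mice 1 to 3 and at 19.1, 33.5 and 45.3 CPM in Fpn-LKO mice 1 to 3. Fgf21, a hormone of the fasted and stressed liver, was counted at 35.2, 21.4 and 11.2 CPM in LT and at 14.8, 17.1 and 35.3 CPM in libraries labelled Fpn-LKO. All 5 genes were lowest in LT replicate 3, the library with the least Id1. A gene that does not vary would score the spread of Id1 itself, so the median is no yardstick of unlikeness. The likeness is a description over 6 libraries, and no test was attached to it.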
